A study of Sus scrofa with 4 samples.

Results

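TREM2, APOE, GPNMB, FABP5, LGMN, SELENOP, MERTK and GAS6 are genes of lipid-associated and repair macrophages, and their transcripts were followed through the cells of regenerating pig bone. They were taken by gene symbol from single-cell count matrices, where they are 8 of 20648 measured genes. The bone came from Bama mini-pigs aged 8 months. One group had received a peptide named 1797 and gave 2 libraries, and the other had received a control peptide (ctrl) and gave 2 libraries. Regenerated bone tissue was digested with type I collagenase, red cells were lysed, and the cells were run on 10x droplets with 3′ counting. All 4 libraries shared that preparation. The design text speaks of 10 control samples, of which the 2 control libraries given for this series were analysed here. The labels do not say that the libraries came from separate animals, so every p-value below measures only the spread between these libraries, which may be technical. With 2 libraries against 2, an exact two-sided permutation test of a single value cannot go below 0.333, so the tests come from models fitted across all genes.

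Macrophages that take up dying cells and lipid debris switch on a shared set of genes, known best from mouse and human fat, brain, atheroma and healing tissue. TREM2 is a surface receptor that binds lipids and signals through the adaptor TYROBP, and MERTK is a receptor kinase that binds dying cells through the bridging ligand GAS6. Lipid taken up this way is handled by the fatty acid carrier FABP5 and exported on the lipoprotein APOE, while GPNMB, a glycoprotein of the late endosome, and LGMN, a lysosomal cysteine protease, mark a busy lysosome. SELENOP is a secreted selenium carrier that macrophages also make. Bone holds a second phagocyte of the same descent, the osteoclast, whose resorbing lysosome is known to contain GPNMB.

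All 8 are annotated as protein-coding genes in the RefSeq annotation of Sscrofa11.1, the build of the files. The receptor genes are TREM2 on chromosome 7 (36465921 to 36471509) and MERTK on chromosome 3 (44349377 to 44483400). The ligand gene GAS6 lies on chromosome 11 (78848797 to 78880733). The lipid-handling genes are APOE on chromosome 6 (51373113 to 51375333) and FABP5 on chromosome 4 (55277831 to 55282585). The lysosomal genes are GPNMB on chromosome 9 (92037428 to 92071501) and LGMN on chromosome 7 (114176217 to 114210096). SELENOP lies on chromosome 16 (27537885 to 27547863). Counts are per gene and from the 3′ end, so exons and isoforms are not distinguished.

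Each library held 87844389 to 98758412 unique molecular identifiers (UMIs, one per captured transcript) in 12133 to 14496 barcodes. After filtering and removal of doublets, 49137 cells were kept. They were clustered without the 8 genes and without the related genes described further on. Classes were named from fixed marker lists, and 1845 cells were called macrophage-like, 2254 monocyte-like, 915 osteoclast-like and 722 stromal-like. No marker list held any of the 8. The macrophage list held some related genes, C1QB and MSR1 among them, which so helped to name classes and to choose clusters for a second clustering. Among macrophage-like cells, the 1797 libraries gave 386 and 365 cells and the ctrl libraries 511 and 583. The monocyte-like class had 503 and 733 cells in 1797 and 484 and 534 in ctrl. Osteoclast-like cells numbered 295 and 252 in 1797 against 261 and 107 in ctrl, and stromal-like cells 336 and 45 against 119 and 222. Replicates of one group were far from identical, with a chi-square of 391.3 per degree of freedom between the 1797 libraries and 372.5 between the ctrl libraries. Pairs of libraries shared 42 to 63 barcodes.

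The class names were checked against their markers, as sums over each marker list in each library. Levels are in CPM, the UMIs of a gene summed over the cells of a class in a library and scaled to a fixed total. The 11 macrophage markers summed to 6232 and 7984 CPM in 1797 macrophage-like cells and to 8114 and 9923 CPM in ctrl. The same list gave 1201 to 1800 CPM across the 4 libraries in monocyte-like cells and 462 to 588 CPM in stromal-like cells. The 10 osteoclast markers summed to 7819 to 20162 CPM in osteoclast-like cells and to 547 to 1777 CPM in macrophage-like cells. The stromal list gave 59343 to 138506 CPM in stromal-like cells and 316 to 987 CPM in macrophage-like cells. The monocyte list was not told apart by its sum, at 3202 to 4081 CPM in monocyte-like and 2451 to 4672 CPM in osteoclast-like cells, where S100A4 made up most of it; its defining cytokine gene IL1B was at 828 to 1379 CPM in monocyte-like and 2.37 to 7.44 CPM in osteoclast-like cells. The macrophage-like class held a cluster with a very uneven make-up, led by the scavenger protein gene CD5L. Of its cells, 14 and 24 came from the 1797 libraries and 16 and 354 from ctrl. The SELENOP result in macrophage-like cells is given with and without it. Other sums over the whole class, those of marker lists among them, include it.

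Macrophage-like cells had the highest level of 7 of the 8 genes among 14 classes, those that reached 20 cells per library, each class being given by the mean CPM of its 4 library sums. For APOE, LGMN, SELENOP, MERTK and TREM2 the macrophage-like libraries lay apart from those of every other class, while for GPNMB and FABP5 they overlapped with the next class. GAS6 was the exception, highest in NK or cytotoxic cells. Classes were built from the same cells, so these orders describe the libraries and carry no test.

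**Figure D1:**
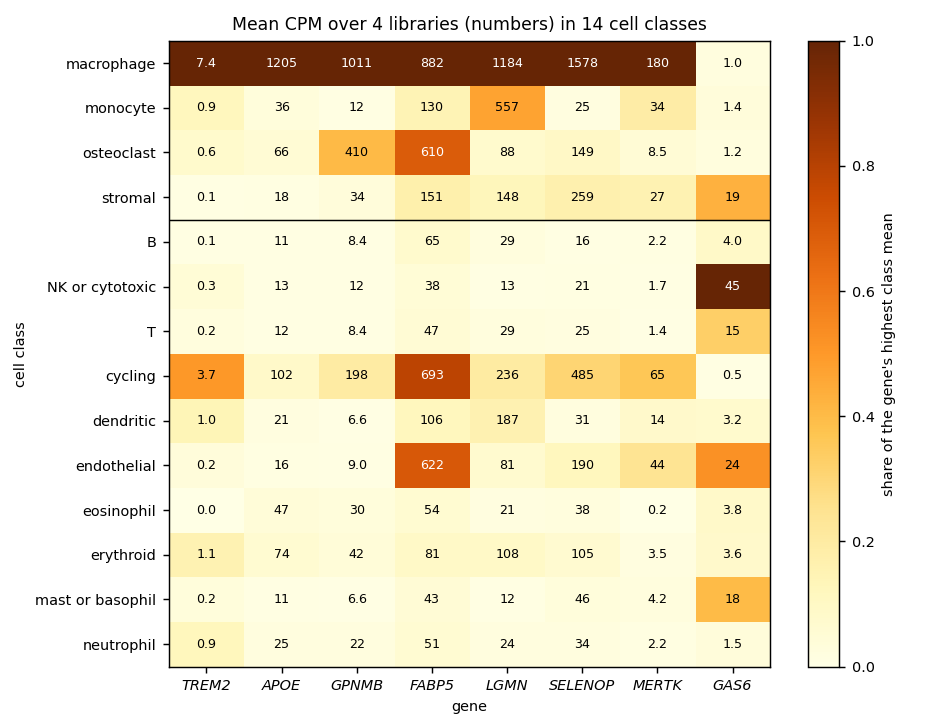
Heat map of 14 cell classes (rows) by the 8 genes (columns); the number in a cell is the mean CPM of the 4 libraries, and the colour is that mean as a share of the gene's highest class mean. The macrophage row is darkest for 7 genes, FABP5 is also high in cycling (693 CPM), endothelial (622 CPM) and osteoclast (610 CPM) rows, and GAS6 is darkest in the NK or cytotoxic row.

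Among the receptors, TREM2 was barely captured: 377 UMIs were counted in all 49137 cells, 120 of them in macrophage-like cells. Its level there was 9.59 and 5.75 CPM in the 1797 libraries and 6.69 and 7.59 CPM in the ctrl libraries, so the groups overlapped. The next class, cycling cells clustered together with the macrophage-like and osteoclast-like cells, averaged 3.70 CPM, and stromal-like cells held 2 TREM2 UMIs in all. MERTK was captured far better than that, averaging 180 CPM in macrophage-like cells, 2.76 times the 65.2 CPM of cycling cells. Endothelial cells followed at 44.3 CPM, and monocyte-like cells at 34.2 CPM.

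The MERTK ligand GAS6 went the other way. Its level in NK or cytotoxic cells was 46.2 and 45.4 CPM in 1797 and 39.4 and 49.98 CPM in ctrl, and these 4 values lay above those of every other class. Endothelial cells averaged 23.7 CPM, stromal-like cells 19.4 CPM, mast or basophil cells 18.1 CPM and T cells 14.9 CPM, and these neighbours in the order overlapped. Macrophage-like cells held 15 GAS6 UMIs in the 4 libraries together, monocyte-like cells 58 and osteoclast-like cells 10. After thinning to equal depth, as described below, 3.65% of NK or cytotoxic cells had a GAS6 UMI, against 0.129% of neutrophils. By source, NK or cytotoxic cells gave 27.4% of all GAS6 UMIs, T cells 14.3%, endothelial cells 10.9% and stromal-like cells 8.80%. Cells of clusters left without a class name gave 27.3%. In 1797 library 2 they gave 39.8%, more than the 22.5% of NK or cytotoxic cells.

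APOE was the most concentrated of the 8. Macrophage-like cells gave 63.1% of all APOE UMIs, with 57.0% to 67.7% across the libraries, although they were 2.88% to 5.08% of the cells. Their mean of 1205 CPM was 11.9 times that of the next class. Monocyte-like cells, which share their descent, had 29.5 to 43.7 CPM, and osteoclast-like cells 24.6 to 115 CPM. FABP5 was the least concentrated of the genes that peak in macrophage-like cells. Its class means were 882 CPM in macrophage-like, 693 CPM in cycling, 622 CPM in endothelial and 610 CPM in osteoclast-like cells, all overlapping, and there was then a gap of 4.03 times to stromal-like cells at 151 CPM.

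The lysosomal genes divided between the phagocytes in different ways. GPNMB, known from osteoclasts as osteoactivin, averaged 1011 CPM in macrophage-like cells and 410 CPM in osteoclast-like cells, with overlapping libraries. Below these, cycling cells averaged 198 CPM and stromal-like cells 33.5 CPM. LGMN averaged 1184 CPM in macrophage-like cells, and monocyte-like cells came next at 557 CPM, apart from both the class above and the class below. Of all LGMN UMIs 33.2% came from the 2254 monocyte-like cells and 31.2% from the 1845 macrophage-like cells. Osteoclast-like cells had 49.2 to 114 CPM of LGMN, so GPNMB and LGMN ranked the monocyte-like and osteoclast-like classes in opposite orders. SELENOP averaged 1578 CPM in macrophage-like cells, 3.26 times the 485 CPM of cycling cells. Stromal-like cells had 259 CPM of it, endothelial cells 190 CPM and osteoclast-like cells 149 CPM.

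Single cells showed the same concentration. Each cell of at least 1000 UMIs was thinned to 1000 UMIs, so that depth was equal, and neutrophils served as a class that should lack these genes. This kept 279 of 386 and 302 of 365 macrophage-like cells in 1797 and 354 of 511 and 248 of 583 in ctrl. Of these 1183 cells, 66.1% had a SELENOP UMI, 55.3% an LGMN UMI, 47.2% an APOE UMI, 43.7% an FABP5 UMI, 33.4% a GPNMB UMI and 11.8% a MERTK UMI. In thinned neutrophils the shares were 2.73% for SELENOP, 2.29% for LGMN, 1.84% for APOE, 4.36% for FABP5, 1.97% for GPNMB and 0.243% for MERTK. Without thinning the macrophage-like shares were 85.9%, 74.7%, 70.9%, 60.1%, 56.6% and 32.2% in that same gene order, and TREM2 was seen in 5.20% of cells before thinning and 0.507% after. The number of the 8 genes seen in each thinned cell was counted as well. At least 3 of the 8 were seen in 59.5% and 46.0% of thinned macrophage-like cells of the 1797 libraries and in 46.6% and 58.5% of those of the ctrl libraries. That share was 8.16% in osteoclast-like, 2.21% in stromal-like and 1.07% in monocyte-like cells and 0.218% in neutrophils. Of thinned macrophage-like cells 7.8% showed none of the 8, against 60.5% of monocyte-like and 32.6% of osteoclast-like cells. Such counts rise with the shares of the single genes. They do not show whether the genes met in the same cells more often than those shares alone would give.

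Macrophage-like cells fell into clusters that carried the genes differently. The cluster led by EPB41L3, a cytoskeletal adaptor gene, was deep (median 13177 UMIs) and had the highest GPNMB level of the macrophage-like clusters in the 1797 libraries, at 2294 and 2112 CPM. In the ctrl libraries its GPNMB was 353 and 1979 CPM. APOE there was 1975 and 786 CPM in 1797 and 1004 and 2057 CPM in ctrl, and MERTK was 322 and 191 CPM in 1797 and 228 and 235 CPM in ctrl. A further deep cluster, led by the mannose receptor gene MRC1 and the chemokine gene CXCL13, had less APOE and GPNMB than the EPB41L3 cluster in every library: APOE at 799 and 634 CPM in 1797 and 515 and 1145 CPM in ctrl, and GPNMB at 996 and 422 CPM in 1797 and 153 and 1130 CPM in ctrl. In both of these clusters GPNMB was lowest in ctrl library 1. The osteoclast list in the EPB41L3 cluster summed to 2241 and 4932 CPM in 1797 and 498 and 1097 CPM in ctrl, with 7 of 10 markers higher in 1797 and none at 0, and its part in the GPNMB levels was not tested. The class also held a deep cluster of 29 cells led by CTSL, of which 0 and 2 came from the 1797 libraries and 0 and 27 from ctrl, and it is not compared here.

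The shallow clusters of the class had more APOE and SELENOP than the EPB41L3 and MRC1 clusters in every library. In the cluster led by the complement gene C1QB (median 870 UMIs) APOE was 5002 and 3203 CPM in 1797 and 3196 and 2735 CPM in ctrl. MERTK there was 15.6 and 31.7 CPM in 1797 and 13.4 and 24.6 CPM in ctrl, below the EPB41L3 and MRC1 clusters in every library. The CD5L cluster (median 747 UMIs) had the highest SELENOP level of all, with 6187 and 4484 CPM in 1797 and 4338 and 6884 CPM in ctrl. Whether these shallow barcodes are intact cells was not tested. Osteoclast-like cells also came in a deep and a shallow cluster. The deep one, led by the proton pump gene ATP6V0D2, had FABP5 at 494 and 313 CPM in 1797 and 319 and 366 CPM in ctrl, and the shallow one, led by CRYAB and CTSK, had 2042 and 2435 CPM in 1797 and 2536 and 2188 CPM in ctrl. None of the 8 genes was called between 1797 and ctrl inside these clusters that could be fitted, nor reached an unadjusted p under 0.05. Of all tested genes, 4 of 2154 (0.186%) were called in the C1QB cluster. The share called was 0.0% in the EPB41L3, MRC1, ATP6V0D2 and CRYAB clusters. The unadjusted limit was passed by 6.84% of tested genes in the EPB41L3, 7.55% in the MRC1, 4.36% in the C1QB, 5.24% in the ATP6V0D2 and 3.59% in the CRYAB cluster.

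**Figure D2:**
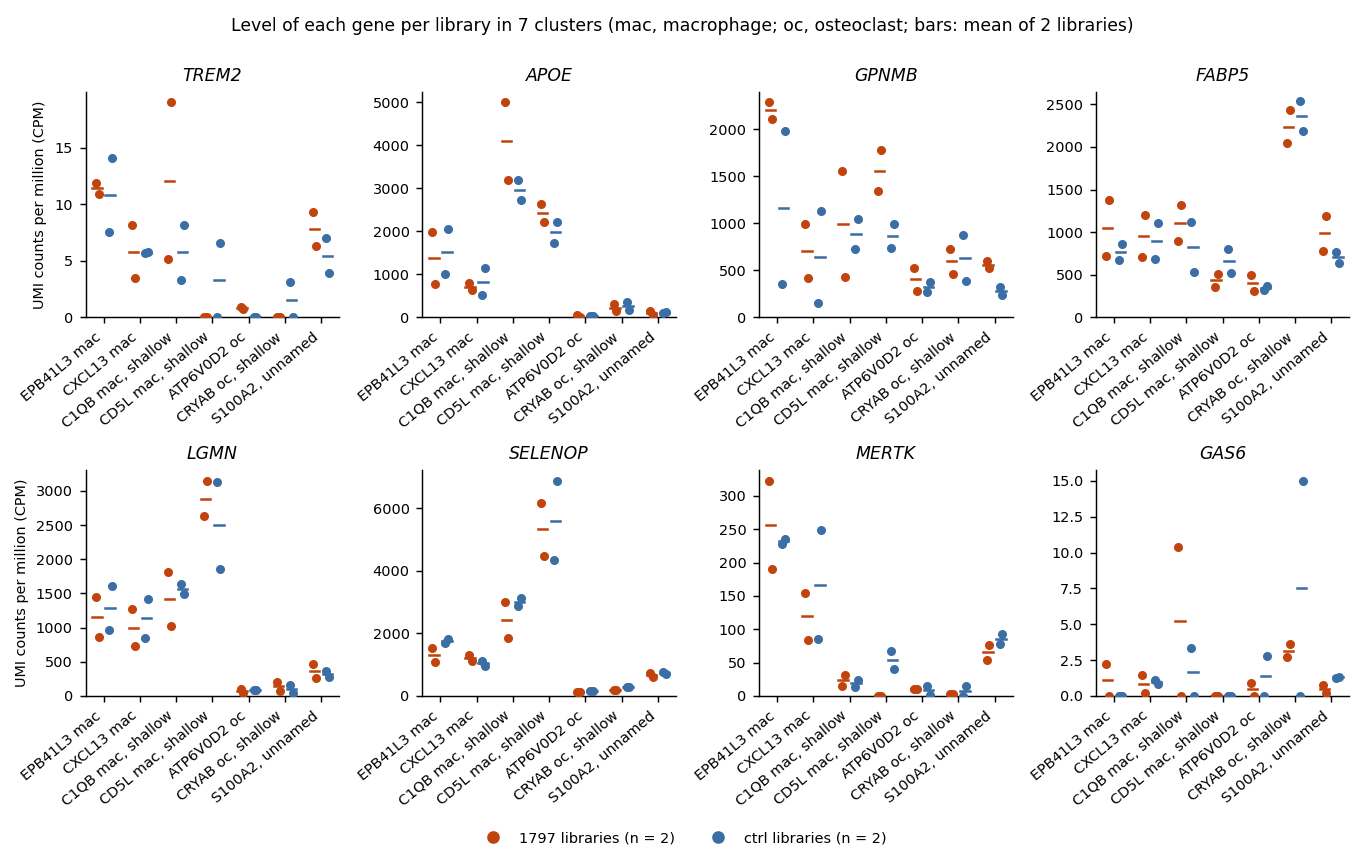
Level of each gene (CPM, linear axis from 0, own scale per panel) in 4 macrophage-like clusters, 2 osteoclast-like clusters and the unnamed S100A2 cluster; points are libraries, bars the mean of the 2 libraries of a group, 1797 in red left of ctrl in blue. GPNMB of the EPB41L3 cluster is 353 CPM in ctrl library 1 and 1979 to 2294 CPM in the other 3 libraries, and SELENOP is highest in the CD5L cluster.

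The comparison of 1797 with ctrl asked whether these macrophage genes differ in bone regenerated under the peptide. Class sums of counts per library were tested with edgeR's quasi-likelihood test over all genes that passed the filter on low counts, with Benjamini-Hochberg adjustment at 0.05. In macrophage-like cells 7 of the 8 genes passed that filter and 0 were called, as were 0.0% of the 11048 genes tested. At an unadjusted p under 0.05, 0 of the 7 and 11.2% of all tested genes passed, and DESeq2 called 102 of the 8477 it gave an adjusted p (1.2%), none of the 8 among them. The median log2 fold change of the 7 was -0.13, beside -0.01 for all genes tested.

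**Figure D3:**
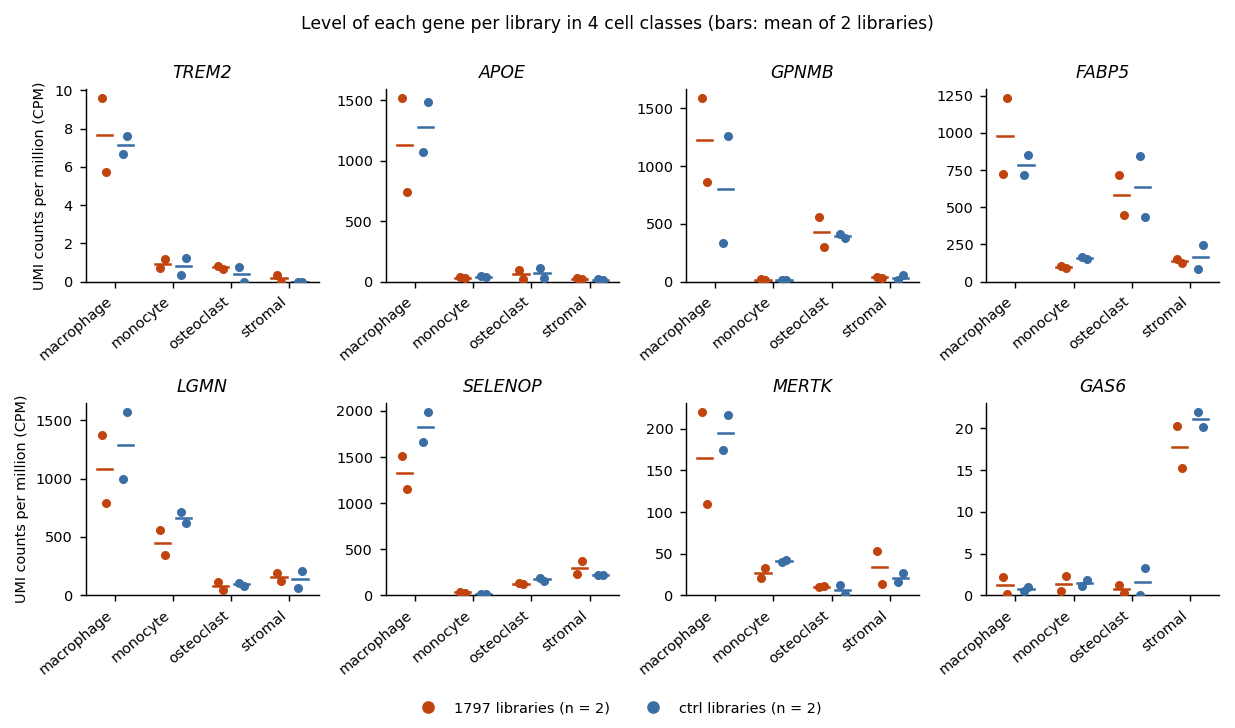
Level of each gene (CPM, linear axis from 0, own scale per panel) in macrophage-like, monocyte-like, osteoclast-like and stromal-like cells; points are libraries, bars the mean of the 2 libraries of a group, 1797 in red left of ctrl in blue. The macrophage-like points of SELENOP are 1510 and 1151 CPM in 1797, below the 1662 and 1988 CPM of ctrl, and those of GPNMB overlap.

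SELENOP was the one gene of the 7 whose groups did not overlap in macrophage-like cells, beside 18.1% of tested genes higher and 25.8% lower in both 1797 libraries. It measured 1510 and 1151 CPM in 1797 and 1662 and 1988 CPM in ctrl, lower in both 1797 libraries, with a log2 fold change of -0.40 ± 0.20 (SE; edgeR adjusted p = 0.511). Without the CD5L cluster, of which ctrl library 2 held 354 of 408 cells, the log2 difference was -0.17, and without the shallow clusters it was -0.12. Inside the EPB41L3 cluster it was -0.42 ± 0.21 and inside the MRC1 cluster 0.26 ± 0.19. Stromal markers in macrophage-like cells summed to 504 and 316 CPM in 1797 and 614 and 987 CPM in ctrl, with 2 of 14 higher in 1797, and their part in the SELENOP value was not tested.

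GPNMB had the largest fitted difference of the class, and the largest standard error. It measured 1588 and 858 CPM in 1797 and 337 and 1262 CPM in ctrl, a log2 fold change of 0.66 ± 0.60 (edgeR adjusted p = 0.704). Its value rested on ctrl library 1: the log2 difference was 0.005 without that library and 1.93 without ctrl library 2. Among thinned cells, ctrl library 1 was again the lowest, with GPNMB in 42.3% and 31.8% of macrophage-like cells of 1797 and in 21.8% and 41.9% of those of ctrl. The sum of the osteoclast markers was lowest in ctrl library 1 and highest in 1797 library 2. The 10 markers summed to 1430 and 1777 CPM in 1797 macrophage-like cells and to 547 and 959 CPM in ctrl, with 8 of 10 higher in 1797 and none at 0. The monocyte list was also higher in 1797, at 3059 and 2642 CPM against 1665 and 1466 CPM in ctrl (9 of 10 markers higher). The macrophage list was lower, at 7984 and 6232 CPM against 8114 and 9923 CPM, with 1 of 11 markers higher in 1797. These sums include the CD5L cluster, which came mostly from ctrl library 2. Inside the MRC1 cluster the macrophage list was higher in 1797, at 6656 and 6009 CPM against 5845 and 4332 CPM (9 of 11 markers higher). Inside the EPB41L3 cluster its groups overlapped, at 8360 and 5645 CPM in 1797 and 7848.5 and 7615 CPM in ctrl. The part of other cell types in the GPNMB result was not tested.

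APOE, LGMN and MERTK shared their lowest library in macrophage-like cells, 1797 library 2, and their groups overlapped. APOE was 1518 and 745 CPM in 1797 and 1069 and 1489 CPM in ctrl. LGMN was 1378 and 788 CPM in 1797 and 999 and 1573 CPM in ctrl. MERTK was 220 and 110 CPM in 1797 and 175 and 216 CPM in ctrl. In each case the replicates of 1797 differed by more than the group means did, and the log2 fold changes were -0.13 ± 0.35, -0.20 ± 0.33 and -0.19 ± 0.33. FABP5 had 1797 library 2 as its highest, with 721 and 1238 CPM in 1797 and 718 and 852 CPM in ctrl (0.39 ± 0.29), and TREM2 had a difference of 0.15 ± 0.38. GAS6 did not pass the filter in this class.

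In monocyte-like cells, all 8 genes passed the filter and 0 were called (0.0% of 11417 genes tested), while DESeq2 called 43 genes (0.546%) and none of the 8. Unadjusted p was under 0.05 for 2 of the 8, FABP5 and SELENOP, and for 6.57% of all genes. FABP5 was lower in both 1797 libraries, at 107 and 92.0 CPM against 168 and 155 CPM in ctrl, with a log2 fold change of -0.65 ± 0.18 (edgeR adjusted p = 0.688). LGMN was lower as well, at 557 and 343 CPM in 1797 against 712 and 617 CPM in ctrl (-0.51 ± 0.27), and so was MERTK, at 21.1 and 32.9 CPM against 40.2 and 42.8 CPM (-0.56 ± 0.25). In thinned cells LGMN was seen in 25.9% and 23.0% of 1797 monocyte-like cells and in 38.0% and 33.6% of ctrl ones. FABP5 was seen in 5.92% and 6.19% of thinned 1797 cells and in 10.7% and 12.2% of ctrl cells, beside 4.36% of neutrophils. In CPM, neutrophils had 29.3 to 71.2, below all the monocyte-like libraries.

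SELENOP and GPNMB were higher in both 1797 libraries of the monocyte-like class, which made 2 genes higher and 3 lower of the 8, beside 14.8% and 23.9% of all tested genes. SELENOP was 34.0 and 28.3 CPM in 1797 and 19.0 and 18.6 CPM in ctrl, a log2 fold change of 0.78 ± 0.22 (edgeR adjusted p = 0.688). Its share of thinned monocyte-like cells was 1.43% and 1.10% in 1797 and 2.07% and 2.44% in ctrl, against the order of the CPM and below the 2.73% of neutrophils. In CPM, neutrophils had 18.6 to 45.6. Whether the monocyte-like level is background was not tested, and no order is taken from it. GPNMB was 17.4 and 10.3 CPM in 1797 and 9.66 and 8.84 CPM in ctrl (0.62 ± 0.33), and -0.25 with a stricter cell filter. Neutrophils had 15.34 to 30.02 CPM of GPNMB, which overlapped these values, so no order is taken from them either. Whether they are background was not tested. APOE overlapped, at 35.6 and 29.5 CPM in 1797 and 43.7 and 35.3 CPM in ctrl (-0.23 ± 0.23), and TREM2 rested on 34 UMIs. These APOE values overlapped the 11.13 to 39.20 CPM of neutrophils. Macrophage markers in this class summed to 1579 and 1201 CPM in 1797 and 1800 and 1593 CPM in ctrl, with 2 of 11 higher in 1797. The stromal list summed to 791 and 511 CPM in 1797 and 1251 and 1118 CPM in ctrl, with 1 of 14 higher. Their part in these results was not tested.

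Osteoclast-like cells had enough counts for 6 of the genes, and 0 were called (0.0% of 9635 genes), with 0 at an unadjusted p under 0.05 beside 4.64% of all genes, and DESeq2 calling 9 genes (0.0992%) and none of these. GPNMB was 559 and 296 CPM in 1797 and 412 and 374 CPM in ctrl. The groups overlapped (0.08 ± 0.33). SELENOP was lower in both 1797 libraries, at 129 and 119 CPM against 191 and 159 CPM in ctrl, a log2 fold change of -0.53 ± 0.23 (edgeR adjusted p = 0.997). Stromal markers in the class summed to 432 and 154 CPM in 1797 and 581 and 904 CPM in ctrl, with 1 of 14 higher in 1797, and their part in this was not tested. In this class 17.6% of tested genes were higher and 14.3% lower in both 1797 libraries. FABP5 was 720 and 446 CPM in 1797 and 844 and 431 CPM in ctrl, LGMN 114 and 49.2 CPM in 1797 and 105 and 81.7 CPM in ctrl, and MERTK 9.89 and 10.7 CPM in 1797 and 11.9 and 1.61 CPM in ctrl, and all overlapped. TREM2 had 6 UMIs in the class. APOE also varied widely between replicates, with 96.6 and 24.6 CPM in 1797 and 115 and 27.4 CPM in ctrl. The osteoclast list itself was uneven, at 13063 and 12031 CPM in 1797 and 7819 and 20162 CPM in ctrl.

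In stromal-like cells 7 genes passed the filter and 0 were called (0.0% of 12580 genes), with 0 at an unadjusted p under 0.05 beside 2.41% of all genes, and DESeq2 calling 3 genes (0.0238%) and none of these. APOE was 28.1 and 18.2 CPM in 1797 and 17.3 and 8.37 CPM in ctrl (0.92 ± 0.45). Neutrophils had 11.13 to 39.20 CPM of APOE, which overlapped these values, so no order is taken from them. Whether they are background was not tested. SELENOP was higher in both 1797 libraries, at 229 and 370 CPM against 219 and 220 CPM in ctrl (0.44 ± 0.32), and without 1797 library 2 its log2 difference was 0.06. The lysosomal genes overlapped, with GPNMB at 41.6 and 29.9 CPM in 1797 and 8.86 and 53.9 CPM in ctrl and LGMN at 194 and 126 CPM in 1797 and 62.4 and 211 CPM in ctrl. The GPNMB values spanned the 15.34 to 30.02 CPM of neutrophils. FABP5 was 151 and 126 CPM in 1797 and 81.0 and 247 CPM in ctrl, and MERTK 53.4 and 13.8 CPM in 1797 and 16.0 and 26.7 CPM in ctrl, again overlapping. Non-overlap was seen for 14.5% of tested genes higher and 15.1% lower. GAS6, which stromal cells are known to secrete, was 20.3 and 15.3 CPM in 1797 and 21.9 and 20.2 CPM in ctrl (-0.22 ± 0.32), and these groups overlapped. The macrophage list in the class was 466 and 588 CPM in 1797 and 496 and 462 CPM in ctrl, with 10 of 11 markers higher in 1797. The stromal list was 72235 and 59343 CPM in 1797 and 138506 and 78493 CPM in ctrl, with 2 of 14 higher. Their part in the APOE and SELENOP values was not tested. The second 1797 library rested on 45 stromal-like cells.

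Outside these 4 classes, values of cycling and endothelial cells are given, named after they were seen. Groups stood apart in other classes as well. SELENOP was lower in both 1797 libraries in B, NK or cytotoxic, neutrophil, erythroid and eosinophil cells, and higher in T cells. FABP5 was lower in B and NK or cytotoxic cells and higher in mast or basophil cells, and MERTK was higher in dendritic cells. None of these was called, and the shares of all genes apart in those classes were not counted. In cycling cells APOE was 193 and 76.5 CPM in 1797 and 67.8 and 68.9 CPM in ctrl, GPNMB was 249 and 201 CPM in 1797 and 168 and 174 CPM in ctrl, and FABP5 was 679 and 983 CPM in 1797 and 476 and 632 CPM in ctrl. All 3 were higher in both 1797 libraries, as were 15.2% of the 10129 genes tested there, and each had an edgeR adjusted p of 0.952. Macrophage markers summed to 2870 and 2422 CPM in 1797 cycling cells and 2101 and 1713 CPM in ctrl, with 9 of 11 higher in 1797. In endothelial cells SELENOP was 134 and 142 CPM in 1797 and 255 and 229 CPM in ctrl (-0.75 ± 0.20, edgeR adjusted p = 0.975), lower in both 1797 libraries, as were 21.7% of genes tested. The macrophage list was lower there as well, at 165 and 147 CPM in 1797 and 550 and 258 CPM in ctrl, with 1 of 11 higher in 1797. The part of macrophage RNA in these values was not tested.

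**Figure D4:**
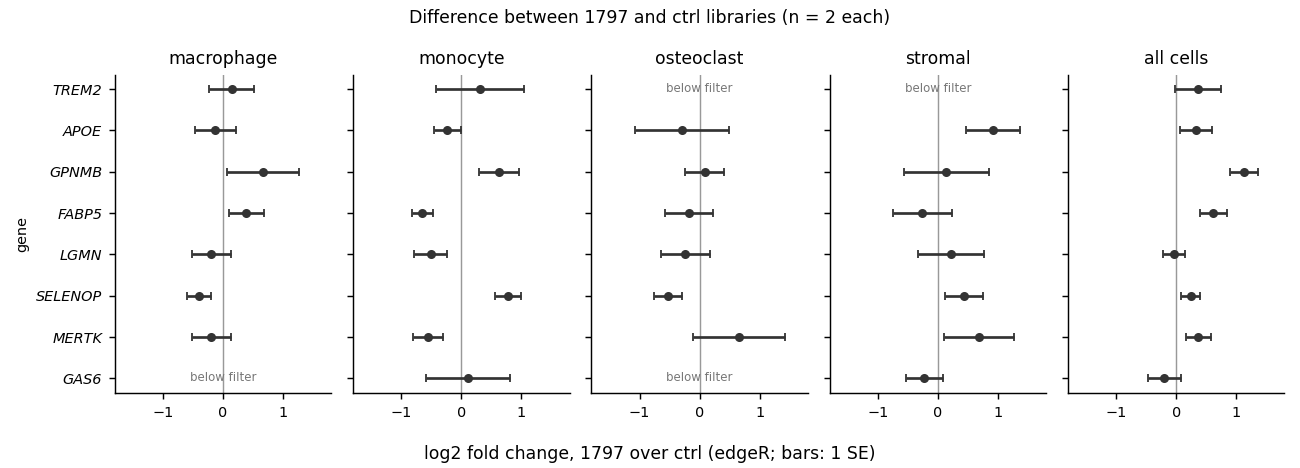
Log2 fold change of 1797 over ctrl (x axis) for each gene (rows) in the 4 classes and in all cells (panels), with bars of 1 standard error from edgeR; genes under the filter on low counts are marked as such. SELENOP runs from -0.53 in osteoclast-like cells to 0.78 in monocyte-like cells, and no value passed the adjusted threshold.

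Whether the peptide difference itself differed between macrophage-like cells and another class was tested with an interaction term, keeping the library as a block. Against monocyte-like cells 0 of the genes were called (0.0% of genes tested, with 11.4% at an unadjusted p under 0.05). SELENOP had the largest contrast, a log2 fold change 1.20 lower in macrophage-like than in monocyte-like cells (-1.20 ± 0.25, edgeR adjusted p = 0.229). Its monocyte-like counts lay at the level of neutrophils, as given above. For FABP5 the contrast ran the other way (0.97 ± 0.37, edgeR adjusted p = 0.404). When all genes were kept without the filter on low counts, 2 of the 8 passed in this contrast, beside 279 of 16408 genes (1.7%). These were FABP5 at 1.07 (edgeR adjusted p = 0.0287) and SELENOP at -1.10 (edgeR adjusted p = 0.0205). Against stromal-like cells the largest contrasts were those of APOE (-1.10 ± 0.54, on stromal-like counts at the level of neutrophils) and SELENOP (-0.79 ± 0.40). In this contrast 0 were called (0.0% of genes tested, with 6.17% at an unadjusted p under 0.05). Against osteoclast-like cells the largest contrasts were those of MERTK (-1.06 ± 0.83) and GPNMB (0.86 ± 0.63), SELENOP differed by 0.11 ± 0.33, and 0 were called (0.0%, with 5.68% at an unadjusted p under 0.05).

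Summed over all cells, 4 of the 8 genes were higher in both 1797 libraries, none were lower in both, and 0 were called (0.0% of 16654 genes). DESeq2 called 21 genes (0.126%) and none of these. Such a sum moves with the number of cells of a class as well as with RNA per cell, and the sum alone cannot tell these apart. GPNMB was 134 and 122 CPM in 1797 and 47.6 and 68.6 CPM in ctrl, a log2 fold change of 1.13 ± 0.24 (edgeR adjusted p = 1.00; DESeq2 adjusted p = 0.184). FABP5 was 229 and 294 CPM in 1797 and 172 and 167 CPM in ctrl (0.62 ± 0.23). These 2 genes had an unadjusted p under 0.05, as did 1.59% of all genes. SELENOP was 173 and 171 CPM in 1797 and 144 and 144 CPM in ctrl (0.24 ± 0.16), and MERTK 28.2 and 22.5 CPM against 18.0 and 20.7 CPM (0.37 ± 0.20). TREM2 was 1.01 and 1.36 CPM in 1797 and 1.01 and 0.81 CPM in ctrl, and GAS6 was 14.3 and 9.01 CPM in 1797 and 13.3 and 12.9 CPM in ctrl, both without a separation of the groups. Non-overlap was seen for 12.6% of tested genes higher and 12.2% lower.

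The GPNMB total could be divided by class. Macrophage-like cells gave 77.8 and 55.8 of the CPM in 1797 and 13.6 and 39.1 in ctrl. Osteoclast-like cells gave 17.0 and 13.9 in 1797 and 6.25 and 7.44 in ctrl, and the unnamed cluster led by S100A2 gave 9.31 and 26.4 in 1797 and 5.76 and 3.91 in ctrl. Each of these was larger in both 1797 libraries. Macrophage-like cells were 3.16% and 2.88% of kept cells in 1797 and 4.0% and 5.08% in ctrl, but held 4.90% and 6.5% of the UMIs in 1797 and 4.04% and 3.10% in ctrl. Their median depth was 3494 and 15067 UMIs in 1797 and 2121 and 876 UMIs in ctrl. Osteoclast-like cells held 3.04% and 4.69% of the UMIs in 1797 and 1.52% and 1.99% in ctrl. The FABP5 total came from several classes. Macrophage-like cells gave 35.3 and 80.4 CPM of it in 1797 and 29.0 and 26.4 CPM in ctrl. In 1797 library 2 cycling cells gave 66.9 and the S100A2 cluster 60.1 of its 294 CPM, while in 1797 library 1 endothelial cells gave 57.7 of 229 CPM.

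**Figure D5:**
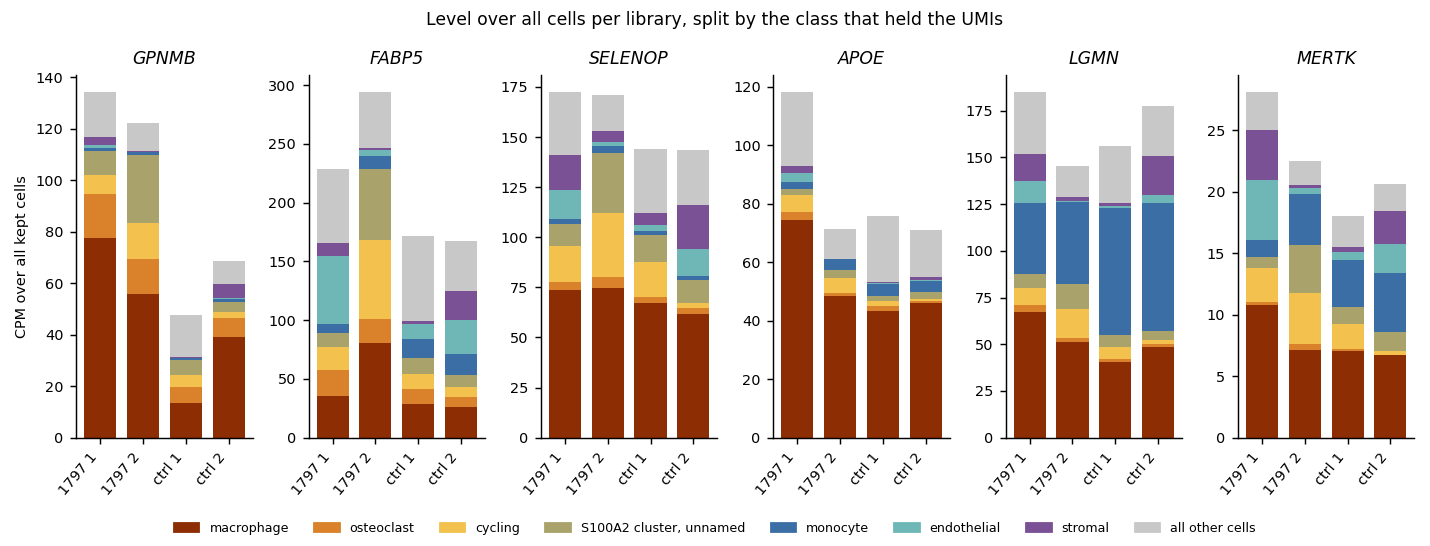
Stacked bars of the level over all kept cells (CPM) of 6 genes in each library, 1797 libraries left of ctrl libraries, with colours for the class that held the UMIs; each panel has its own scale. The macrophage-like part of GPNMB is 77.8 and 55.8 CPM in 1797 and 13.6 and 39.1 CPM in ctrl, and the monocyte-like part of LGMN is 38.1 and 43.7 CPM in 1797 and 68.1 and 68.6 CPM in ctrl.

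LGMN was level over all cells, at 185 and 145 CPM in 1797 and 156 and 178 CPM in ctrl, while its sources differed. Monocyte-like cells gave 38.1 and 43.7 CPM of it in 1797 and 68.1 and 68.6 CPM in ctrl, and macrophage-like cells gave 67.5 and 51.2 CPM in 1797 and 40.4 and 48.7 CPM in ctrl. The monocyte-like part was smaller and the macrophage-like part larger in both 1797 libraries. APOE over all cells was 118 and 71.4 CPM in 1797 and 75.9 and 71.0 CPM in ctrl, with the macrophage-like part at 74.3 and 48.4 CPM in 1797 and 43.2 and 46.1 CPM in ctrl.

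The S100A2 cluster was singled out after its values had been seen. It held 283 cells, 43 and 134 in 1797 and 63 and 43 in ctrl, and stayed unnamed because its highest marker score, 0.63 for the osteoclast list, was under the limit of 0.75. GPNMB there was 600 and 521 CPM in 1797 and 325 and 240 CPM in ctrl, higher in both 1797 libraries (0.99 ± 0.21, edgeR adjusted p = 0.581). FABP5 was 783 and 1185 CPM in 1797 and 768 and 640 CPM in ctrl, also higher in both. SELENOP was 719 and 592 CPM in 1797 and 757 and 700 CPM in ctrl, with overlapping groups. Of the 7 genes tested there, 2 were higher and 1 lower in both 1797 libraries, beside 16.5% and 20.1% of all tested genes. The cluster gave 59 of the TREM2 UMIs, 15.7% of all. GPNMB was the 1 gene of the 7 tested there with an unadjusted p under 0.05, beside 6.73% of all genes.

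The genes most like each of the 8 were found by the correlation of log CPM over 56 sums, 14 classes in 4 libraries, which share their libraries and depth and carry no p. APOE was nearest to LOC100511343 (0.86) and to the complement genes C1QC (0.81) and C1QB (0.81). GPNMB was nearest to the lectin gene LGALS3, the acid ceramidase gene ASAH1 and the lipoprotein lipase gene LPL (0.85, 0.85 and 0.84). For LGMN, the complement gene C2 and the protease gene CTSB were among the nearest (0.89 each). TREM2 had lower values throughout, with the complement receptor gene VSIG4 at 0.79, LOC100511343 at 0.76 and the lysosomal lipase gene LIPA at 0.75. FABP5 and SELENOP were both nearest to the endocytic adaptor gene DAB2 (0.89 and 0.88). FABP5 was then nearest to FJX1 and FCGRT (0.88 each) and SELENOP to CCDC141 (0.86) and PDGFC (0.83). MERTK was nearest to LTBR (0.87), ARPIN (0.86) and SASH1 (0.86), and GAS6 to PTPN4, LBH and ETS1 (0.87, 0.87 and 0.85). Within the set, the highest values were SELENOP with FABP5 (0.80) and LGMN with MERTK (0.80), and GAS6 was negative with all the other 7, between -0.56 and -0.22.

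Related genes of these pathways were described from lists, beside all tested genes. In macrophage-like cells 48.7% of all tested genes had a positive and 51.3% a negative log2 fold change, with a median of -0.01. Both 1797 libraries lay above both ctrl libraries for 18.1% of these genes and below both for 25.8%. The TREM2 signalling list had 3 of 12 tested genes with a positive and 9 with a negative log2 fold change, with a median of -0.15 and 0 called. The adaptor TYROBP was 627 and 656 CPM in 1797 and 572 and 680 CPM in ctrl, while the downstream linker GRB2 was 531 and 501 CPM in 1797 and 383 and 408 CPM in ctrl (0.44, higher in both). The guanine nucleotide exchange factor VAV3 was 1013 and 706 CPM in 1797 and 1057 and 929 CPM in ctrl, with overlapping groups. The list of apoptotic cell uptake had 9 positive and 10 negative of 19, with a median of -0.18 and 0 called. Its complement genes, which coat dying cells and were also macrophage markers here, had negative values. C1QB was 1684 and 1323 CPM in 1797 and 1965 and 2359 CPM in ctrl (-0.47), and C1QC was 1033 and 754 CPM in 1797 and 1042 and 1425 CPM in ctrl (-0.41), both lower in both 1797 libraries. C1QA overlapped, at 1584 and 1170 CPM in 1797 and 1283 and 2424 CPM in ctrl.

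The lipid handling list had 11 positive and 8 negative of 19 in macrophage-like cells, with a median of 0.04 and 0 called. The cholesterol exporter ABCA1, which loads APOE, was 648 and 581 CPM in 1797 and 913 and 804 CPM in ctrl (-0.42). The scavenger receptor MSR1 was 934 and 942 CPM in 1797 and 1094 and 1076 CPM in ctrl, and the lipoprotein receptor SCARB1 was 542 and 500.4 CPM in 1797 and 648 and 613 CPM in ctrl. All 3 were lower in both 1797 libraries, and MSR1 was also a macrophage marker here. Of the 19 genes, 5 were higher and 5 lower in both 1797 libraries, beside 18.1% and 25.8% of all tested genes. The lysosomal list had 16 positive and 6 negative of 22, with a median of 0.16 and 0 called, and its protease CTSB was 2117 and 1916 CPM in 1797 and 1671 and 2007 CPM in ctrl. The protease CTSS was 2237 and 1620 CPM in 1797 and 1365 and 2030 CPM in ctrl, and the protease inhibitor CST3 was 11261 and 13678 CPM in 1797 and 14350 and 10937 CPM in ctrl. These 3 overlapped between groups. The selenoprotein list had 13 positive and 5 negative of 18, median 0.20 and 0 called, and the thioredoxin reductase gene TXNRD1 was 548 and 570 CPM in 1797 and 404 and 387 CPM in ctrl (0.56). The glutathione peroxidase GPX1 was 1032 and 997 CPM in 1797 and 810 and 963 CPM in ctrl (0.25), and both enzymes were higher in both 1797 libraries. SECISBP2, which reads the selenocysteine signal, was 158 and 90.5 CPM in 1797 and 158 and 124 CPM in ctrl.

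The MITF and TFE transcription factors, known to drive GPNMB and lysosomal genes in mouse and human cells, went in different directions. TFEC was 608 and 542 CPM in 1797 and 349 and 316 CPM in ctrl (0.85 ± 0.17, edgeR adjusted p = 0.364), and MITF was 812 and 625 CPM in 1797 and 1069 and 1074 CPM in ctrl (-0.52). Both gave groups that did not overlap, beside 18.1% of tested genes higher and 25.8% lower in macrophage-like cells, and neither was called. TFEB was 62.2 and 49.4 CPM in 1797 and 53.6 and 46.2 CPM in ctrl. Over all cells the lysosomal list had a positive log2 fold change for 22 of 22 genes, with a median of 0.27 and 0 called, beside 47.6% of all genes positive and 52.4% negative. For 11 of the 22 both 1797 libraries lay above both ctrl libraries, as they did for 12.6% of all genes. The same list had 6 positive and 16 negative in osteoclast-like cells (median -0.16, beside 48.4% and 51.6% of all genes) and 17 positive and 5 negative in monocyte-like cells (median 0.12, beside 47.9% and 52.1%), again with 0 called. The lipid handling list had 16 of 19 positive over all cells (median 0.29) and 14 of 18 in stromal-like cells (median 0.22, where 46.8% of all genes were positive and 53.2% negative).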

How the data were processed

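The deposited values were whole UMI counts per gene and barcode in filtered matrices. Cell Ranger 7.0.1 wrote them per the file headers, while the submitters' processing notes name Cell Ranger 5.0.0 and Sscrofa11.1. Nothing was normalized by the authors in these counts. Barcodes with under 200 genes or 20% or more mitochondrial UMIs were removed, as were 1798 barcodes called doublets by Scrublet (2.18% to 4.55% per library). The rest were clustered in scanpy 1.11.5 (Python 3.11.15) on 2000 variable genes, 30 components, 15 neighbours and Leiden resolution 1.0, with 109 genes, the 8 and the related lists, left out. Macrophage, osteoclast and related clusters (5285 cells) were clustered again. A class needed a mean marker score of 0.75 and a lead of 0.5 over the next list, limits chosen after the clusters had been seen; 17 clusters of 11554 cells stayed unnamed. Counts were summed per library and class, scaled by all UMIs of the sum (CPM), and tested with edgeR 4.0.16 (TMM, filterByExpr, R 4.3.3) over all genes. DESeq2 1.42.0, other filters, resolutions, seeds and doublet settings, omitted libraries and a replicate block were alternatives. Leaving out the CD5L cluster, leaving out shallow clusters and crossing the block were added after seeing the data. The 8 genes and the lists were chosen with earlier results of these data known. By rule the text names the 8 genes in each class, the 3 genes most like each, and from each list the 3 highest in macrophages and any called. One gene that this rule names is not reported here. No sequence is printed. Scripts were tested on simulated data. Median depth per kept cell was 3145.5 to 5345 UMIs, and intervals from repeats cover 2 libraries a group.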

Additional observations from a re-analysis of the deposited data

Results flagged for a closer look

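SELENOP was picked out because its libraries moved in opposite directions in different classes. As a log2 ratio of the mean CPM of 1797 over that of ctrl, it was 0.73 in monocyte-like cells and 0.45 in stromal-like cells, with both 1797 libraries above both ctrl libraries in each. It was -0.46 in macrophage-like cells and -0.5 in osteoclast-like cells, with both 1797 libraries below both ctrl libraries. The difference between macrophage-like and monocyte-like cells had an edgeR adjusted p of 0.229, and that between macrophage-like and stromal-like cells 0.793. The differences of monocyte-like or stromal-like from osteoclast-like cells were not tested. The monocyte-like counts lay at the level of neutrophils, the stromal-like value on the fitted scale was 0.06 without 1797 library 2, and the macrophage-like value was -0.17 on the fitted scale without the CD5L cluster.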

How the results depend on the processing

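None of the 8 genes was called for 1797 against ctrl in any class or in all cells, and of 88 counts of called genes under other settings 87 were still 0. The exception was the contrast of macrophage-like with monocyte-like cells without the filter on low counts, where 2 genes passed. Of 394 values under other settings, leaving out single libraries aside, 380 kept their direction and their side of the threshold. On the log2 scale, with the 8 genes among the clustering genes, APOE was 0.068 and MERTK 0.208 in macrophage-like and LGMN 0.042 in osteoclast-like cells. With doublets kept, TREM2 was -0.408 and GAS6 -0.131 in monocyte-like cells, and APOE 0.399 and LGMN 0.021 in osteoclast-like cells. With a stricter cell filter GPNMB was -0.247 in monocyte-like cells. Without shallow clusters APOE was 0.346 and FABP5 0.217 in osteoclast-like cells, and with another seed LGMN was 0.440 there. The cause of these changes was not tested. Other clustering settings moved the macrophage-like class between 1771 cells (the 8 genes among the clustering genes) and 3520 cells (resolution 0.5), and the stricter filter, which kept 41027 cells in all, left 1260.

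Leaving out each library in turn called 0 of these genes, and 49 of 218 values took the other direction. Lowest and highest log2 values in macrophage-like cells were -0.207 and 0.461 for TREM2, -0.678 and 0.281 for APOE, -0.088 and 0.76 for FABP5, -0.604 and 0.183 for LGMN and -0.727 and 0.207 for MERTK. In monocyte-like cells they were -0.248 and 0.575 for TREM2 and -1.376 and 0.689 for GAS6. In osteoclast-like cells they were -1.535 and 1.144 for APOE, -0.405 and 0.477 for GPNMB, -0.6 and 0.47 for FABP5, -0.922 and 0.263 for LGMN and -0.263 and 2.689 for MERTK. In stromal-like cells they were -0.565 and 2.014 for GPNMB, -0.828 and 0.765 for FABP5, -0.39 and 1.351 for LGMN and -0.649 and 1.291 for MERTK. Over all cells they were -0.142 and 0.077 for LGMN and -0.483 and 0.045 for GAS6. In the contrast of macrophage-like with monocyte-like cells they were -0.889 and 0.526 for TREM2, -0.389 and 0.484 for APOE, -0.731 and 1.39 for GPNMB, -0.115 and 0.832 for LGMN and -0.455 and 1.129 for MERTK. With osteoclast-like cells they were -1.318 and 1.328 for APOE, -0.211 and 1.942 for GPNMB, -0.31 and 1.183 for FABP5, -0.449 and 0.672 for LGMN, -0.215 and 0.42 for SELENOP and -3.15 and 0.119 for MERTK. With stromal-like cells they were -0.152 and 0.59 for GPNMB and -0.368 and 1.043 for FABP5. GPNMB in macrophage-like cells ran from 0.005 to 1.927.

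With the replicate block 0 genes were called in each of the 5 fits, as without it, and GAS6 in monocyte-like cells was -0.081. Libraries with the same number share only that number: the correlation of their deviations was -0.033 in macrophage-like, 0.047 in monocyte-like, 0.021 in osteoclast-like and -0.097 in stromal-like cells and -0.309 over all cells. Crossing the numbers called 0 of 16654 genes over all cells. Of 128 shares of cells with a UMI, 121 were lower after thinning. TREM2 in osteoclast-like and stromal-like cells and GAS6 in macrophage-like and osteoclast-like cells were under the filter on low counts and have no test.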

Other observations

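The integrin gene ITGAV, a receptor chain for dying cells that was named after its values were seen, stood apart in macrophage-like cells, as 18.1% of tested genes did in the same direction. It was 538 and 401 CPM in 1797 and 220 and 208 CPM in ctrl, with a log2 fold change of 1.19 (edgeR adjusted p = 0.357). An unnamed shallow cluster with APOE among its leading genes (839 cells) had FABP5 at 2591 and 3220 CPM in 1797 and 3494 and 2637 CPM in ctrl.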
